A study of Mus musculus with 22 samples.

Results

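Expression of 10 genes of the cell cycle engine was followed through CD8+ T cell activation. They are 6 cyclins (Ccnd2, Ccnd3, Ccne1, Ccne2, Ccna2 and Ccnb1) and 4 inhibitors of cyclin-dependent kinases (Cdkn1a, Cdkn1b, Cdkn2c and Cdkn2d). They were matched by symbol among 21674 genes with a symbol in the deposited tables, by a rule that used no measured value. All 10 passed the low-count filter that left 21183 of 46603 genes for testing.

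Cyclins are the regulatory subunits of cyclin-dependent kinases (CDKs). D-type cyclins pair with CDK4 and CDK6 in G1 phase, E-type cyclins with CDK2 at the entry into S phase, cyclin A2 with CDK2 and CDK1 through S and G2 phase, and cyclin B1 with CDK1 at mitosis. Inhibitors of the Cip/Kip family (p21 from Cdkn1a, p27 from Cdkn1b) bind assembled cyclin-CDK complexes, and inhibitors of the INK4 family (p18 from Cdkn2c, p19 from Cdkn2d) bind CDK4 and CDK6. Naive T cells rest outside the cycle and enter it after stimulation through the antigen receptor. Much of the control of cyclins and of p27 acts on protein stability, which RNA does not show.

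Naive CD8+ T cells had been isolated from mouse spleen and lymph nodes by magnetic depletion of other cells. Sequencing was done on naive cells and on cells stimulated for 24 h or 48 h with anti-CD3 coated on the plate (2 µg/ml) and dissolved anti-CD28 (1 µg/ml). The KI group (3 mice) was of the line Tcaim KI Cd4Cre with the genotype label hocre, and the wt group (3 mice) of the same line with the label wtcre. The KO group (2 mice) was of the line Tcaim KO Cd4Cre with the label hocre, and it was sequenced naive and at 48 h. Every line name includes Cd4Cre, and Cd4 regulatory sequence drives expression in developing T cells of both the CD4 and the CD8 lineage. Ages were not given. Each mouse gave 1 library per time point of its group, which makes 22 libraries in 8 groups. Replicate numbers 1, 3 and 5 are the labels' experiment numbers, and each experiment held 1 KI and 1 wt mouse, male in experiments 1 and 3 and female in experiment 5. KO mice, both female, were in experiments 1 and 5, and no wt mouse of the KO line was analysed here.

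Total counts per library ran from 62551905 to 93489115. Levels are in CPM, counts scaled to a common library total after TMM normalization. Tcaim itself had 14.6 to 15.2 CPM in naive wt and 138 to 145 CPM in naive KI libraries. In the libraries labelled KO it was counted at 14.9 and 19.6 CPM before stimulation and 11.7 and 5.99 CPM at 48 h, beside 9.04 to 11.98 CPM in wt at 48 h. Tcaim counts were thus below the wt range in 1 of these 4 libraries, and they are named by their label. CD8 T cell markers (6 of 6 detected) summed to 2385 to 5157 CPM (of unadjusted totals, as for all markers) in every library, so the labelled cell type was present. CD4 T cell markers (3 of 3 detected) summed to 30.3 to 91.6 CPM in all but the libraries labelled KO of replicate 1, which had 283 naive and 188 at 48 h. B cell markers (6 of 6 detected) summed to 1097 to 1349 CPM in naive wt libraries, 631 to 959.7 at 24 h and 468 to 688 at 48 h, and to 942 to 1220, 659.9 to 1019 and 536 to 759 CPM in KI. They stood at 736 and 2821 CPM (the latter in replicate 1) in naive libraries labelled KO and at 739 and 499.9 at 48 h. Myeloid, NK cell and erythroid markers were highest in naive libraries (up to 294, 113 and 70.8 CPM) and reached at most 45.3, 1.69 and 1.90 after stimulation, and the part of these and of the B cell markers in the changes with time was not tested. In bulk RNA, a change in the share of cells that express a gene and a change in RNA per cell cannot be told apart.

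The mitotic cyclin Ccnb1, the inhibitor Cdkn1a and the S phase cyclin Ccna2 rose most by 48 h, with log2 fold changes of 6.90, 5.26 and 4.46 in wt cells. In wt cells the edgeR quasi-likelihood test with Benjamini-Hochberg adjustment called 6 of the 10 genes higher and 2 lower at 24 h, where 26.3% and 22% of all tested genes were called higher and lower. At 48 h it called 7 higher and 1 lower, against 29.5% and 26.8% of all genes. Between 24 h and 48 h, Ccnb1, Cdkn1a and Cdkn2c rose further in wt cells and none of the 10 fell, beside 4.08% of all genes called higher and 3.41% lower. Calls were made at an adjusted p under 0.05.

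KI cells had 5 of the 10 called higher and 1 lower at 24 h (22.9% and 15.8% of all genes), and 6 higher and 1 lower at 48 h (26.6% and 22.1%). From 24 h to 48 h, Ccna2, Ccnb1, Cdkn1a and Cdkn2c rose in KI cells and none of the 10 fell (1.71% and 0.968% of all genes). Libraries labelled KO had 6 called higher and 0 lower at 48 h against naive (23.6% and 20.4% of all genes), and leaving out replicate 1 raised the number called to 9, where 36.5% of all genes were called in either direction. Each group labelled KO is then 1 library, assumed to vary like the other groups. The median log2 fold change of the 10 genes was 1.99 at 24 h and 2.41 at 48 h in wt cells, where the median of all genes was -0.05 and -0.04. In KI cells the members' median was 1.02 at 24 h and 1.85 at 48 h, beside medians of 0.01 and -0.02 over all genes.

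**Figure D1:**
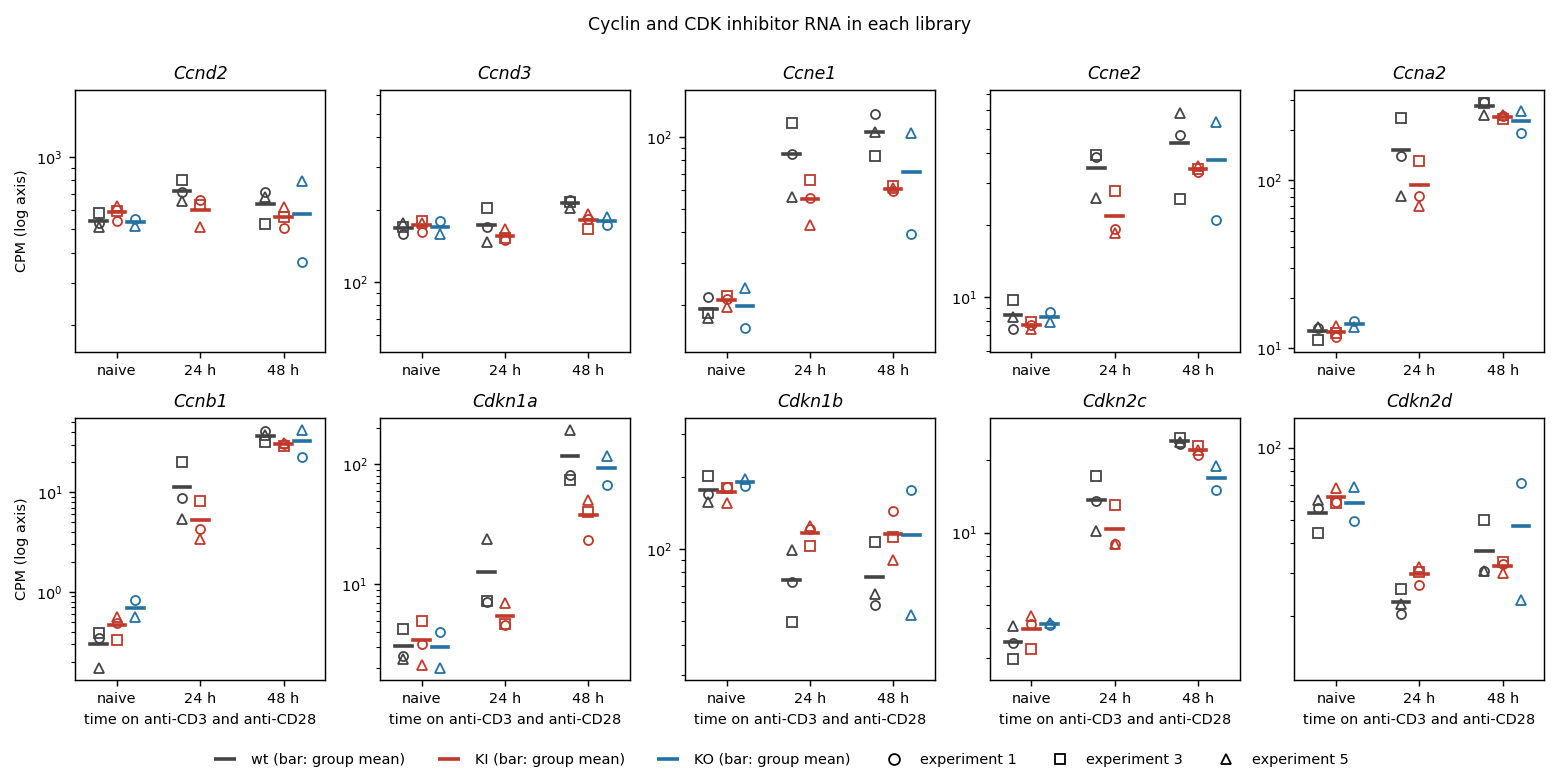
CPM on a log axis for each of the 10 genes in every library, by time on anti-CD3 and anti-CD28, with colour for genotype, symbol shape for experiment and a bar for the group mean. Ccna2, Ccnb1 and Cdkn2c climb at each step in every wt and KI mouse, as Cdkn1a does in every wt mouse. In wt and KI libraries Ccnd2 and Ccnd3 stay within a narrow band, while stimulated Cdkn1b values lie below naive ones, a fall called in wt alone. The 48 h libraries labelled KO stand apart from each other for Ccnd2, at 366 and 795 CPM.

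The D-type cyclins, which act in G1, were already expressed before stimulation. Ccnd2 (ENSMUSG00000000184, GRCm38 chromosome 6, 127125162 to 127152193) had 531, 583 and 512 CPM in naive wt cells of experiments 1, 3 and 5. It had 717, 801 and 654 CPM at 24 h and 711, 526 and 681 CPM at 48 h. The 24 h libraries all lay above the naive ones, and the 48 h libraries overlapped them. KI cells ran from 541 to 627 CPM naive, 512 to 664 CPM at 24 h and 508 to 618 CPM at 48 h, which overlap throughout. Ccnd2 was called by edgeR in no comparison of time or genotype in the fit of all libraries, with a log2 fold change of 0.42 in wt at 24 h (adjusted p 0.0889, SE 0.198) and 0.24 at 48 h (adjusted p 0.317, SE 0.197). Its exons overlap the antisense genes Gm43126 (26.5 to 72.3 CPM) and 9330179D12Rik, and its counts are uncertain to that extent.

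Ccnd3 (ENSMUSG00000034165, chromosome 17, 47505051 to 47599691), the other D-type cyclin measured, had 159, 170 and 176 CPM in naive wt cells and 220, 215 and 203 CPM at 48 h. The 48 h wt libraries lay above all naive ones, a rise of 0.33 on the log2 scale (edgeR adjusted p 0.0159, SE 0.111). This small call depended on scaling: it was 0.12 (edgeR adjusted p 0.361) with upper-quartile factors, which moved the median of all genes from -0.04 to -0.26. It was also lost with library size alone, with limma and without wt replicate 1 (adjusted p 0.0565, 0.0560 and 0.164). Ccnd3 shares exon sequence positions with Bysl on the opposite strand and has a processed pseudogene, Ccnd3-ps, at 14.9 to 29.8 CPM, so its counts are uncertain.

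The E-type cyclins rose within the first day. Ccne1 (ENSMUSG00000002068, chromosome 7, 38097984 to 38107534) had 21.6, 18.5 and 17.7 CPM in naive wt cells, 84.5, 114 and 56.2 CPM at 24 h and 125, 83.3 and 105 CPM at 48 h. All stimulated wt libraries lay above all naive ones, and the ranges at 24 h and 48 h overlapped. The edgeR log2 fold change against naive was 2.14 at 24 h (adjusted p 8.93e-06, SE 0.292) and 2.44 at 48 h (adjusted p 1.48e-06, SE 0.296). In KI cells Ccne1 went from 21.2, 21.7 and 19.7 CPM to 55.7, 66.0 and 43.1 CPM at 24 h and 59.3, 62.4 and 61.0 CPM at 48 h. The KI rise was 1.40 at 24 h (adjusted p 0.000773, SE 0.286) and 1.55 at 48 h (adjusted p 0.00022, SE 0.287).

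Ccne2 (ENSMUSG00000028212, chromosome 4, 11191351 to 11204779) followed the same course at lower counts. Wt libraries had 7.39, 9.78 and 8.27 CPM naive, 38.4, 39.0 and 25.9 CPM at 24 h and 47.4, 25.7 and 58.7 CPM at 48 h. KI libraries had 7.67, 7.92 and 7.42 CPM naive, 19.3, 27.7 and 18.5 CPM at 24 h and 33.2, 34.1 and 35.1 CPM at 48 h. Stimulated and naive libraries did not overlap in either genotype, and at 48 h the KI values fell inside the wt range. Against naive cells, the edgeR log2 change at 48 h was 2.37 in wt (adjusted p 2.85e-06, SE 0.304) and 2.15 in KI (adjusted p 1.18e-05, SE 0.302). Ccne2 has an exon overlap with Ints8 on the opposite strand, so reads of the pair may have been shared.

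Ccna2 (ENSMUSG00000027715, chromosome 3, 36564865 to 36572150), the cyclin of DNA replication and G2, rose from 13.3, 11.2 and 13.4 CPM in naive wt cells to 140, 236 and 81.0 CPM at 24 h. At 48 h it reached 293, 291 and 246 CPM. The 48 h wt libraries lay in a narrower band than the 24 h libraries, where experiment 3 was high and experiment 5 low. By edgeR, the log2 fold change against naive was 3.59 at 24 h (adjusted p 2.02e-08, SE 0.295) and 4.46 at 48 h (adjusted p 1.28e-09, SE 0.307). The further wt step from 24 h to 48 h was 0.86 and not called (adjusted p 0.0563). It was called with experiment as a replicate block (0.91, adjusted p 0.0332), with mouse as a block (0.94, adjusted p 0.0383), by DESeq2 (adjusted p 0.0255), by limma (adjusted p 0.0245) and without wt replicate 3 (1.29, adjusted p 0.00948).

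KI cells had 11.6, 12.4 and 13.5 CPM of Ccna2 naive, 80.4, 130 and 70.6 CPM at 24 h and 242, 233 and 245 CPM at 48 h. The order of the experiments at 24 h was the same as in wt, with experiment 3 highest and experiment 5 lowest. The KI step from 24 h to 48 h was 1.36 (edgeR adjusted p 0.0106, SE 0.27). Like the other 3 KI calls over that interval, it was lost without KI replicate 1 (adjusted p 0.185) and without KI replicate 5 (adjusted p 0.330). In both of those fits 0 of all tested genes were called over that interval, whereas the fit of all libraries called 362 higher and 205 lower. Ccna2 has an exon overlap with Exosc9 on the opposite strand.

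Ccnb1 (ENSMUSG00000041431, chromosome 13, 100778650 to 100786570), which with CDK1 drives entry into mitosis, had the largest fold change of the 10. It was low in naive wt cells at 0.35, 0.39 and 0.17 CPM, and had 8.75, 20.1 and 5.37 CPM at 24 h and 40.6, 31.9 and 37.7 CPM at 48 h. No ranges overlapped between time points. The edgeR log2 fold change against naive was 5.22 at 24 h (adjusted p 1.06e-07, SE 0.49) and 6.90 at 48 h (adjusted p 3.87e-09, SE 0.519), while limma on variance-stabilised values, which shrink low counts, gave 4.01 and 5.86. The rise from 24 h to 48 h was 1.69 (adjusted p 0.0133, SE 0.394), and this call was lost without wt replicate 1 (adjusted p 0.224), without wt replicate 5 (adjusted p 0.107) and in a fit of those groups alone (adjusted p 0.0907).

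In KI cells Ccnb1 had 0.49, 0.33 and 0.56 CPM naive, 4.32, 8.22 and 3.42 CPM at 24 h and 30.3, 29.2 and 30.8 CPM at 48 h. The processed pseudogene Ccnb1-ps was counted at similar levels, with wt means of 0.398 CPM naive, 10.6 CPM at 24 h and 39.3 CPM at 48 h and KI means of 0.387, 5.14 and 28.9 CPM. Since reads may have been split between the copies, the level of Ccnb1 is uncertain.

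The CCAAT box is a motif of many cell cycle promoters and is bound by NF-Y. It was searched on both strands in the 250 bases before each RefSeq start (GRCm38.p6), where 7 of the 10 genes had 10 windows and Ccnd2, Ccne2 and Ccna2 were not matched. CCAAT was in 4 of these 10 windows (Ccnb1, Cdkn1b, Ccnd3 and Cdkn2d), against 33.8% of 32851 windows of the same length. Ccnb1 and Cdkn1b each held 2 matches, as 10.1% of all windows did. The Ccnb1 sequence, which rose most, is shown with the matches in capitals (chr13:100786487-100786736, minus strand, 99 to 95 and 67 to 63 bases before the start):
Ccnb1: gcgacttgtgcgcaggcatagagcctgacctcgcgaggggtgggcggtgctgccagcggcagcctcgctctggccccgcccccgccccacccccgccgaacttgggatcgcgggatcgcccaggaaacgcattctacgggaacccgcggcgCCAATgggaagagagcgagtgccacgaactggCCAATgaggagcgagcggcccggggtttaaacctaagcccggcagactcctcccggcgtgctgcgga
None of the 10 windows held the other motifs searched on both strands, the CHR letters TTTGAA (16% of all windows) and TTCGAA (1.34%), the E2F letters TTTCCCGC (0.895%), TTTGGCGC (0.417%) and TTTCGCGC (0.256%), the E-box CACGTG (6.02%), the CRE letters TGACGTCA (1.55%), the forkhead letters TTGTTTAC (1.07%) and the STAT letters TTCCNGGAA (0.913%).

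Cdkn1a (ENSMUSG00000023067, chromosome 17, 29090976 to 29100727) encodes p21, the CDK inhibitor known as a target of p53. It was the inhibitor that changed most. Wt cells had 2.53, 4.27 and 2.38 CPM naive, 7.15, 7.30 and 23.8 CPM at 24 h and 82.1, 75.0 and 194 CPM at 48 h. Every wt mouse rose at each step, and the mouse of experiment 5 had the highest value at both 24 h and 48 h. Against naive cells, the edgeR log2 change was 2.06 at 24 h (adjusted p 0.00229, SE 0.5) and 5.26 at 48 h (adjusted p 3.45e-07, SE 0.567). The 24 h call rested on experiment 5, since without wt replicate 5 it was 1.09 (adjusted p 0.0526), and without wt replicate 3 it was 2.66. Between 24 h and 48 h the wt rise was 3.20 (adjusted p 0.000948, SE 0.51).

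KI cells had 3.20, 5.00 and 2.13 CPM of Cdkn1a naive, 4.63, 4.72 and 6.97 CPM at 24 h and 23.6, 39.9 and 50.5 CPM at 48 h. The 24 h libraries overlapped the naive ones, and all 48 h libraries lay above both. The KI change was 0.66 at 24 h, which was not called (edgeR adjusted p 0.301, SE 0.488), and 3.46 at 48 h (adjusted p 2.65e-05, SE 0.523). The KI rise from 24 h to 48 h was 2.80 (edgeR adjusted p 0.00772, SE 0.505). This call was lost when any 1 of the 3 KI mice was left out (adjusted p 0.0754 to 0.197). Over all genes, 139 were called higher and 18 lower in that interval without KI replicate 3, and 0 without KI replicate 1 or 5.

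A search for the p53 response element, with no spacer and at most 1 base off, was chosen after the Cdkn1a sequence had been read, so its match is only described. It was in 25 of 32851 windows (0.0761%), including the window before the upstream RefSeq start of Cdkn1a (chr17:29090729-29090978, plus strand), 51 to 32 bases before that start and in capitals here:
Cdkn1a: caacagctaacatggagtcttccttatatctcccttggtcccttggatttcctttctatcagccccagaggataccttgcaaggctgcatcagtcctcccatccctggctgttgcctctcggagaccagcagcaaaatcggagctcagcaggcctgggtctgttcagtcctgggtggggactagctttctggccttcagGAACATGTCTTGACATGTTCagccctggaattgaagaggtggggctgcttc
The window of the downstream Cdkn1a start (chr17:29093519-29093768) held no match.

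Cdkn1b (ENSMUSG00000003031, chromosome 6, 134920401 to 134925513) encodes p27, an inhibitor that marks resting lymphocytes, and it fell after stimulation of wt cells. Wt libraries had 169, 202 and 157 CPM naive, 72.9, 49.9 and 99.4 CPM at 24 h and 58.3, 107 and 64.8 CPM at 48 h. All stimulated wt libraries lay below all naive ones. By edgeR, the log2 fold change against naive was -1.25 at 24 h (adjusted p 0.00396, SE 0.325) and -1.20 at 48 h (adjusted p 0.0043, SE 0.325). The first call was lost without wt replicate 3 (adjusted p 0.0578) and the second without wt replicate 1 (adjusted p 0.0541).

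KI libraries had 182, 179 and 156 CPM of Cdkn1b naive, 121, 103 and 125 CPM at 24 h and 144, 113 and 89.9 CPM at 48 h. These also lay below the naive range, but neither change was called, at -0.56 (edgeR adjusted p 0.176, SE 0.321) and -0.58 (adjusted p 0.148, SE 0.321). The part of CCAAT matches in the RNA changes was not tested. The sequence before the Cdkn1b start, which also holds a pair of them, is shown (chr6:134920151-134920400, plus strand, matches in capitals 161 to 157 and 35 to 31 bases before the start):
Cdkn1b: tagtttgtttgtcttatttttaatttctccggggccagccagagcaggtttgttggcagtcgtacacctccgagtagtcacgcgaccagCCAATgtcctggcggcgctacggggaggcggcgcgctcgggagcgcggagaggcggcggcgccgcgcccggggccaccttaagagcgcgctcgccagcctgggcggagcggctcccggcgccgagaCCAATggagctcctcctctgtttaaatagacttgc

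The INK4 inhibitors moved in opposite directions at 24 h. Cdkn2c (ENSMUSG00000028551, chromosome 4, 109660876 to 109667189) rose in wt cells from 3.48, 2.97 and 4.09 CPM to 13.6, 17.2 and 10.1 CPM at 24 h and 23.4, 24.7 and 23.8 CPM at 48 h. In KI cells it went from 4.17, 3.27 and 4.51 CPM to 8.96, 13.03 and 8.97 CPM and then 20.99, 22.98 and 22.1 CPM. No ranges overlapped between time points within a genotype. The edgeR log2 fold change against naive at 48 h was 2.77 in wt (adjusted p 3.57e-09, SE 0.207) and 2.47 in KI (adjusted p 1.89e-08, SE 0.204). The wt step from 24 h to 48 h was 0.82 (adjusted p 0.0148, SE 0.194), a call that was lost without wt replicate 1 (adjusted p 0.174), without wt replicate 5 (adjusted p 0.127) and in a fit of those groups alone (adjusted p 0.0880).

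Cdkn2d (ENSMUSG00000096472, chromosome 9, 21288410 to 21291407) fell in wt cells from 56.1, 43.9 and 60.5 CPM to 20.3, 25.8 and 22.4 CPM at 24 h, and had 30.7, 50.0 and 30.7 CPM at 48 h. The 24 h range lay below the naive one, whereas experiment 3 at 48 h overlapped it. Against naive cells, the edgeR log2 change was -1.23 at 24 h (adjusted p 0.00137, SE 0.279) and -0.53 at 48 h (adjusted p 0.11, SE 0.276). KI cells had 59.2, 59.1 and 67.7 CPM naive, 26.7, 30.4 and 31.8 CPM at 24 h and 32.9, 33.6 and 30.2 CPM at 48 h. Both KI changes were called, at -1.06 (adjusted p 0.00523, SE 0.278) and -0.94 (adjusted p 0.00885, SE 0.277). The first was lost without KI replicate 1 (adjusted p 0.0571) and the second without KI replicate 5 (adjusted p 0.0968).

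**Figure D2:**
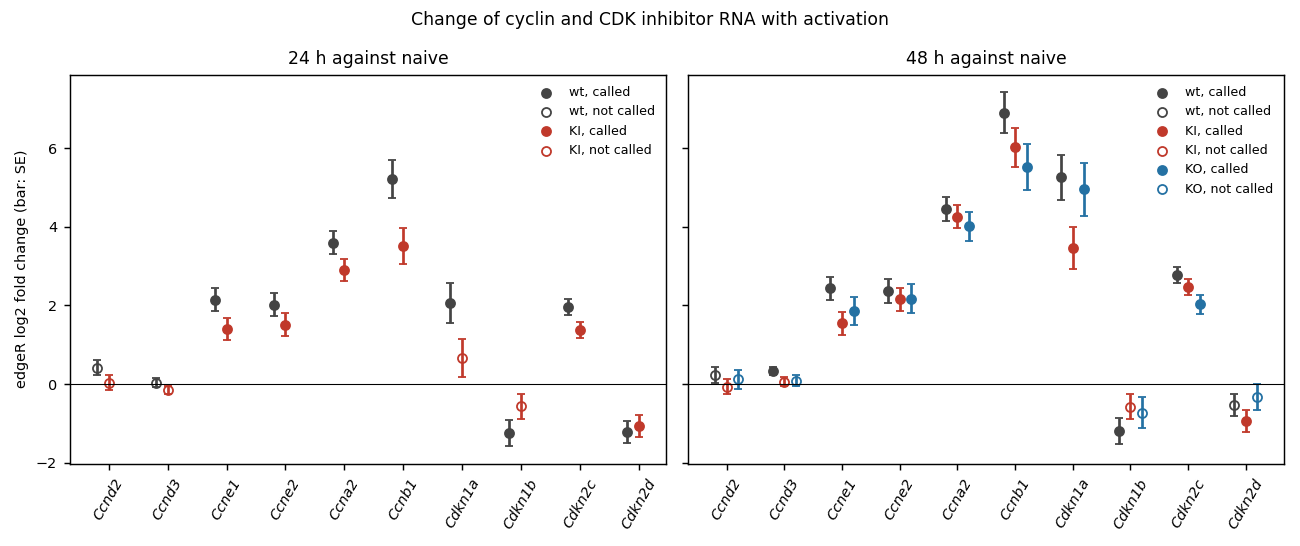
The edgeR log2 fold change against naive cells of the same genotype at 24 h and 48 h, with bars for the standard error, filled points called at an adjusted p under 0.05 and open points not called. At 48 h, Ccnb1 stands highest in all 3 genotypes at 5.53 to 6.90, and KI Cdkn1a at 3.46 sits below wt at 5.26 and the libraries labelled KO at 4.95.

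KI and wt cells were compared at each time to ask whether the Tcaim knock-in came with another course of the cell cycle genes. In naive cells 0 of the 10 were called (0.113% of all genes), 0 at an unadjusted p under 0.05 (434 of all 21183 genes) and 0 by DESeq2. No gene of the 10 had non-overlapping groups (10.6% of all genes), and 3 moved the same way in all 3 experiments (33.7%).

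At 24 h, 0 of the 10 were called by edgeR (0.00472% of all genes) or DESeq2. An unadjusted edgeR p under 0.05 was found for 5 of the 10, and for 1903 of all 21183 genes. The log2 difference KI minus wt was below 0 for 8 of the 10, with a median of -0.51 beside 0.01 over all genes. It was the same sign in all 3 experiments for 9 of 10 (41.4% of all genes), 7 lower in KI and Cdkn1b and Cdkn2d higher, with Ccnd3 the exception. Groups of libraries did not overlap for 3 of the 10 (20.2% of all genes), Cdkn1a lower and Cdkn1b and Cdkn2d higher in KI. The largest fitted differences were -1.23 for Cdkn1a (adjusted p 0.483, SE 0.483), -1.10 for Ccnb1 (adjusted p 0.445, SE 0.391) and -0.70 for Ccna2 (adjusted p 0.462, SE 0.266). None of these passed the test across all genes, and their size depended on single mice. Cdkn1a was -0.41 without wt replicate 5, the library with its highest 24 h value. Without wt replicate 3, the library with the highest 24 h values of both cyclins, Ccnb1 was -0.41 and Ccna2 -0.24, and the members' median was -0.22. Over all alternatives the differences ran from -1.51 to -0.41, -1.56 to -0.41 and -1.01 to -0.24 for the 3 genes.

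At 48 h, edgeR called 0 of the 10 (4.17% of all genes), and 3 had an unadjusted p under 0.05, namely Cdkn1a, Ccne1 and Ccnd3. That unadjusted threshold was passed by 3793 of all 21183 genes. Cdkn1a had a fitted KI minus wt log2 difference of -1.62 (adjusted p 0.0629, SE 0.48). Its highest KI library, at 50.5 CPM, was below the lowest wt library, at 75.0 CPM, and the difference was -1.80, -0.91 and -1.94 in experiments 1, 3 and 5. The call changed with the method: DESeq2 gave an adjusted p of 0.0368, limma 0.0451, and edgeR without wt replicate 3 gave 0.0374. These 3 fits also called more of all genes: 837, 545 and 765 higher and 858, 484 and 525 lower, of 20011, 14321 and 20974 tested. The edgeR fit of all libraries called 483 higher and 401 lower of 21183. Over all alternatives the adjusted p of Cdkn1a ran from 0.0368 to 0.383. Without wt replicate 5, the library with the most Cdkn1a, its difference was -1.05.

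Ccne1 at 48 h had a KI minus wt difference of -0.78 (edgeR adjusted p 0.137, SE 0.281), and the highest KI library (62.4 CPM) was below the lowest wt library (83.3 CPM). In the 3 experiments the difference was -1.07, -0.42 and -0.78. Groups did not overlap for 6 of the 10 at 48 h, all lower in KI (Ccnd3, Ccne1, Ccna2, Ccnb1, Cdkn1a and Cdkn2c), beside 20.6% of all genes. The same sign in all 3 experiments was found for 7 of 10 (40.4% of all genes). The members' median difference was -0.22, beside a median of 0.00 over all genes. For Ccna2, Ccnb1 and Cdkn2c the fitted differences were small, at -0.21, -0.29 and -0.12, with edgeR adjusted p-values of 0.750, 0.759 and 0.802.

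**Figure D3:**
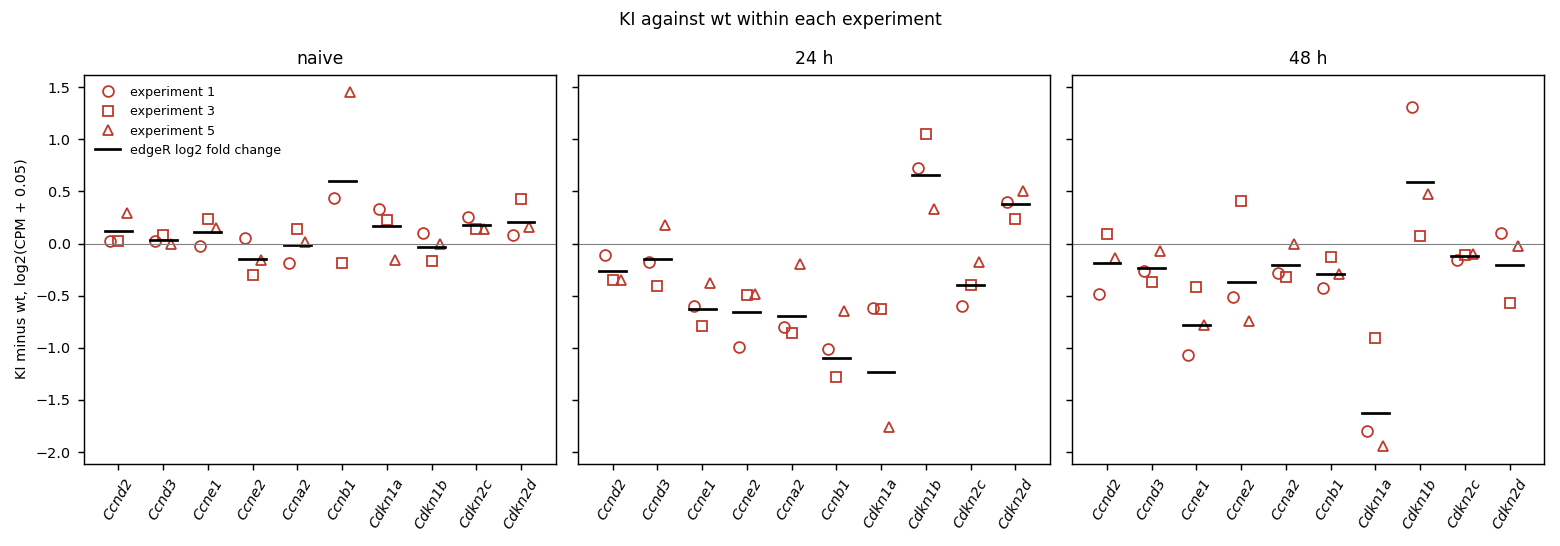
KI minus wt difference in log2(CPM + 0.05) within each experiment (symbols) and the edgeR log2 fold change (black bars), for naive, 24 h and 48 h cells. At 24 h the S phase and mitotic cyclins lie below 0 in all 3 experiments, and at 48 h Cdkn1a lies lowest at -0.91 to -1.94, while Ccna2 and Cdkn2c are close to 0.

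Whether the response itself differed was tested with interaction terms. The interaction of KI with 24 h called 0 of the 10 and 0.0% of all genes by edgeR, and 0 of the 10 by DESeq2. By edgeR, 2 of the 10 and 694 of all 21183 genes had an unadjusted p under 0.05. The interaction with 48 h called 0 of the 10 (0.387% of all genes). An unadjusted p under 0.05 was found for 2 of the 10, and for 2054 of all 21183 genes. The 2 were Cdkn1a at -1.79 (edgeR adjusted p 0.358, SE 0.685) and Ccne1 at -0.89 (adjusted p 0.470, SE 0.398). For the step from 24 h to 48 h, 0 of the 10 (0.00472% of all genes) were called. An unadjusted p under 0.05 was found for 0 of the 10, and for 1199 of all 21183 genes. So although Cdkn1b was called lower after activation in wt and not in KI, a difference between the responses was not shown.

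Levels were compared between genes on the deposited FPKM scale, which divides by gene length. In naive wt cells the order was Ccnd2 (68.5 FPKM), Cdkn2d (50.0), Cdkn1b (46.0), Ccnd3 (22.8), Ccne1 (8.59), Ccna2 (3.67), Ccne2 (2.88), Cdkn1a (1.64), Cdkn2c (1.55) and Ccnb1 (0.0855). The ranges of Cdkn2d and Cdkn1b overlapped, as did those of Ccna2 and Ccne2 and those of Cdkn1a and Cdkn2c. At 48 h the wt order was Ccnd2 (76.0 FPKM), Ccna2 (75.7), Cdkn1a (58.9), Ccne1 (43.9), Cdkn2d (32.6), Ccnd3 (27.1), Cdkn1b (18.8), Ccne2 (14.1), Cdkn2c (9.97) and Ccnb1 (9.74), with overlap between all neighbours. In KI cells at 48 h, Ccnd2 (66.2 FPKM) and Ccna2 (65.1) again led, followed by Cdkn1b (28.1) and Cdkn2d (28.1), and Cdkn1a (18.9) came seventh.

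The FPKM ratio of Cdkn1a to Cdkn1b described the exchange between Cip/Kip inhibitor RNAs, and no test was run on it. In naive wt cells it was 0.0306, 0.0434 and 0.0310, at 24 h 0.201, 0.300 and 0.490, and at 48 h 2.88, 1.43 and 6.13. In KI cells it was 0.0361, 0.0572 and 0.0279 naive, 0.0785, 0.0934 and 0.114 at 24 h and 0.335, 0.725 and 1.15 at 48 h. Wt and KI ranges overlapped in naive cells and did not overlap at 24 h or 48 h. At 24 h this followed from the parts of the ratio, since Cdkn1a was lower and Cdkn1b higher in KI without overlap. At 48 h Cdkn1a had groups that did not overlap and Cdkn1b had groups that did. Cdkn1a RNA exceeded Cdkn1b RNA in all 3 wt libraries at 48 h and in the KI library of experiment 5 alone.

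Between the INK4 members, the FPKM ratio of Cdkn2c to Cdkn2d went in wt from 0.0294, 0.0320 and 0.0319 to 0.362, 0.234 and 0.366 at 48 h. In KI it went from 0.0333, 0.0262 and 0.0315 to 0.302, 0.324 and 0.347, and Cdkn2d stayed above Cdkn2c in every library. At 24 h this ratio was 0.317, 0.314 and 0.214 in wt and 0.159, 0.203 and 0.133 in KI, ranges that did not overlap either. The ratio of Ccne1 to Ccne2 in wt and KI libraries lay between 2.28 and 4.25 at every time. The ratio of Ccnd2 to Ccnd3 in those libraries lay between 2.28 and 4.15, so the paired D-type and E-type cyclins kept their order.

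**Figure D4:**
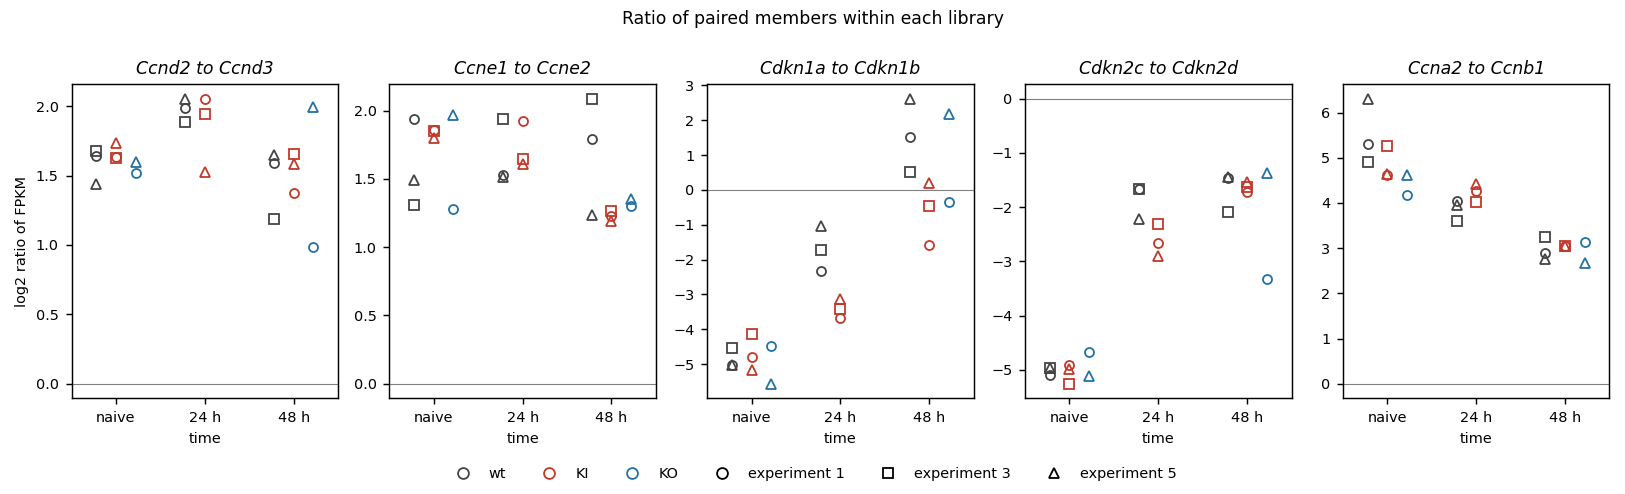
The log2 ratio of FPKM between paired genes in each library, by time, with colour for genotype and symbol shape for experiment. The Cdkn1a to Cdkn1b ratio passes 0 (equal FPKM) at 48 h in all wt libraries, in 1 KI library and in the library labelled KO of replicate 5, while the D-type and E-type ratios stay above 0 throughout.

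Libraries labelled KO were compared with wt cells of the KI line, so line and label cannot be told apart. Both KO mice were female, whereas the wt mice were of both sexes, and the part of sex was not tested. In naive cells edgeR called 0 of the 10 (0.0236% of all genes) and DESeq2 called 0. An unadjusted edgeR p under 0.05 was found for 1 of the 10 (Ccnb1), and for 277 of all 21183 genes. At 48 h edgeR again called 0 (0.0283% of all genes) and DESeq2 called 0. The unadjusted threshold was passed by 1 of the 10 (Cdkn2c), and by 1465 of all 21183 genes. The interaction of KO with 48 h called 0 of the 10 and 0.0% of all genes. It had 1 of the 10 at an unadjusted p under 0.05, and 492 of all 21183 genes.

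The pair of 48 h libraries labelled KO differed widely from each other. Replicates 1 and 5 had 366 and 795 CPM of Ccnd2, 39.3 and 104 CPM of Ccne1, 20.9 and 53.6 CPM of Ccne2, 176 and 53.3 CPM of Cdkn1b and 70.9 and 23.2 CPM of Cdkn2d. Replicate 1 lay below all wt 48 h libraries for these 3 cyclins and above them all for these 2 inhibitors, while replicate 5 lay inside the wt range for Ccne1 and Ccne2, above it for Ccnd2 and below it for Cdkn1b and Cdkn2d. For Cdkn1a they had 68.0 and 119 CPM, for Ccna2 191 and 259 CPM, and for Ccnb1 22.4 and 42.1 CPM, all far above naive. CD4 T cell markers stood at 188 CPM in replicate 1 and 30.3 in replicate 5, and B cell markers at 739 and 499.9; their part in the difference was not tested. Without replicate 5, edgeR called 5 of the 10 between the remaining library labelled KO and wt at 48 h, Ccne1 (-1.41), Ccne2 (-1.08) and Ccnd2 (-0.81) lower and Cdkn1b (1.20) and Cdkn2d (0.93) higher, while 21.5% of all genes were called in that fit against 0.0283% with both libraries. In the fit without replicate 5, the lone library is assumed to vary like the other groups.

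Against naive cells, the libraries labelled KO had Cdkn1a at a log2 fold change of 4.95 (edgeR adjusted p 1.32e-05, SE 0.684), 5.87 without replicate 1 and 4.09 without replicate 5. Ccnb1 was at 5.53 (adjusted p 6.23e-07, SE 0.584), 6.23 without replicate 1 and 4.75 without replicate 5. Ccne2 was at 2.17 (adjusted p 0.000123), 2.76 without replicate 1 and 1.27 without replicate 5. In a fit of just those groups, the calls of Ccne2 (edgeR adjusted p 0.0791) and Ccne1 (adjusted p 0.107) were lost. Over all genes, that fit called 774 higher and 416 lower of 19113, against 5002 and 4312 of 21183 with all libraries.

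Over the 22 libraries, which share the strong contrast of naive and stimulated cells, some of the 10 were almost collinear in log2 CPM. Pearson's r was 0.99 for Ccna2 with Cdkn2c and for Ccna2 with Ccnb1, and -0.91 for Ccne1 with Cdkn1b. The genes most like Ccna2 were Kif22 (r 0.998), Tacc3 and Mad2l1, and those most like Ccnb1 were Cenpe (0.992), Mad2l1 and Hmmr. Cdkn2c, although an inhibitor, came nearest to Kif20a (0.988), Kif22 and Mad2l1. Ccne2 was most like Hsp90aa1 (0.989), Jpt2 and Alyref. Cdkn1a was most like Slc19a2 (0.957), Zmat3 (0.952) and Atmin. Cdkn1b was nearest Pde4b (0.967), Gmfg and Heca, Cdkn2d nearest Cd2 (0.946), Prrt1 and Traf3ip2, and Ccnd2 nearest Urb1 (0.907), Pwp2 and Upf1. Ccnd3 came nearest to its own pseudogene Ccnd3-ps (0.849), then Reep4 and Gm16731.

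Other parts of the cell cycle engine were called in wt cells at 48 h, to be read beside the 29.5% of all genes called higher and 26.8% lower. Of 7 CDK and CDK-activating kinase genes, 5 were called higher and 0 lower, led by Cdk1 at a log2 fold change of 6.74, and of 5 other cyclins tested, 3 rose, led by Ccnb2 (5.75), and Ccnd1 fell (-2.74). Of 3 other CDK inhibitors tested, Cdkn3 rose (3.41) and Cdkn1c fell (-1.69). Of 5 CDK phosphatases and inhibitory kinases 4 rose, led by Cdc25c (6.32). Of 13 pocket protein and E2F genes 9 rose, led by E2f7 (5.90), a repressor of the family. Of 7 genes of the DREAM, B-Myb and FoxM1 complexes 4 rose, led by Mybl2 (4.91). Among 24 genes for degradation of cyclins and inhibitors 21 rose, led by Dtl (6.02), and Fbxw7, whose product marks cyclin E for destruction, fell (-0.60). All 11 mitotic kinases and proliferation markers rose, with a median of 5.96, led by Bub1 (7.12).

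In KI against wt at 24 h, edgeR called 0 genes of these lists in the fit of all libraries, and 1 of all 21183 genes. DESeq2 called 1 gene of the lists, Klf2, which is described with the upstream factors. Of all 17160 genes it tested, DESeq2 called 41 higher and 16 lower. All 11 mitotic kinases and proliferation markers lay below 0, with a median of -0.75 beside 0.01 over all genes. An unadjusted edgeR p under 0.05 was found for 8 of the 11, and for 1903 of all 21183 genes. Among the 11 it was smallest for Plk1 (-1.10, edgeR adjusted p 0.450). These values changed when single mice were left out. Without wt replicate 3 the median of the 11 was -0.32 with 0 at an unadjusted p under 0.05, and Plk1 was at -0.25. Without KI replicate 3 the median was -1.17 and Plk1 was at -1.60. Without KI replicate 5, 0 of the 11 had an unadjusted p under 0.05, and without KI replicate 1, 1 had. The number over all genes moved as well, from 1903 to 1080, 711 and 3000 without wt replicates 1, 3 and 5. It was 1028, 1808 and 935 without KI replicates 1, 3 and 5. Whether these shifts came from fewer mice or from the mouse left out was not tested. At 48 h all 11 again lay below 0, with a median of -0.28 and 0 at an unadjusted p under 0.05 (3793 of all 21183 genes). In KI cells the same 11 had a median of 4.48 at 24 h and 5.75 at 48 h against naive, beside 5.02 and 5.96 in wt cells.

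The p53 list was examined beside Cdkn1a. In KI against wt at 48 h, 13 of 17 tested genes of the list lay below 0 with a median of -0.52, and 5 were called, beside 4.17% of all genes. Zmat3 (-0.93, edgeR adjusted p 0.00451), Tnfrsf10b (-0.75, adjusted p 0.0259) and Ccng1 (-0.68, adjusted p 0.0410) were lower, and Sesn1 (0.91, adjusted p 0.00596) and Btg2 (0.74, adjusted p 0.0239) higher. These 5 were named after their values were seen, apart from Zmat3 and Btg2. Zmat3 had 54.9 to 83.2 CPM in KI and 118 to 135 CPM in wt, and the difference was -1.06, -0.51 and -1.30 in experiments 1, 3 and 5. All 5 calls were lost when just KI and wt cells at 48 h were fitted (edgeR adjusted p 0.0607 to 0.147), and the list had 0 calls without wt replicate 1 and without KI replicate 1. Calls over all genes fell too, from 884 of 21183 to 60 higher and 49 lower of 18257 with just those groups. Without wt replicate 1 they were 51 higher and 65 lower of 21065, and without KI replicate 1 51 and 40 of 21072. Each of the 5 calls was lost in at least 1 fit without a mouse. Zmat3 was lost without KI replicate 1 (edgeR adjusted p 0.0842) and without wt replicate 1 (0.0505), and Sesn1, Btg2, Ccng1 and Tnfrsf10b in 3 to 5 such fits.

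Among factors upstream of the 10 genes, Klf2, a quiescence factor of naive T cells, fell in wt cells at 48 h (-4.73, edgeR adjusted p 1.63e-09) and was higher in KI than in wt at 48 h (1.58, adjusted p 0.00494). KI libraries had 45.2 to 55.0 CPM of Klf2 and wt libraries 13.95 to 20.9 CPM, with differences of 1.98, 1.11 and 1.68 in the 3 experiments. At 24 h Klf2 had 109 to 239.5 CPM in KI and 31.6 to 90.4 CPM in wt, a difference of 1.48 that edgeR did not call (adjusted p 0.184, SE 0.290). It was called by DESeq2 (1.43, adjusted p 0.00148) and by edgeR without wt replicate 5 (1.92, adjusted p 0.0192). The 48 h call was lost without wt replicate 1 (adjusted p 0.0809) and without KI replicate 1 (0.0710). Tob1, an antiproliferative factor, was also higher in KI at 48 h (0.70, edgeR adjusted p 0.0404), the other of 2 called among 12. Ccnh, the cyclin of the CDK-activating kinase, was lower (-0.37, edgeR adjusted p 0.0373), the 1 called among 7 of its list. Of all genes, 4.17% were called in that comparison. Tob1 and Ccnh were lost in each fit without 1 KI mouse, with edgeR adjusted p-values of 0.0732 to 0.273. They were also lost without wt replicate 1 (0.200 and 0.164) and without wt replicate 5 (0.161 and 0.149). With just KI and wt cells at 48 h the values were 0.122 and 0.221. Calls over all genes fell too, to 51, 165 and 248 higher and 40, 118 and 155 lower without KI replicates 1, 3 and 5.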

How the data were processed

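RNA of 22 libraries was read in paired ends from a stranded poly(A) mRNA kit, per the labels' protocols. Per the submitters' processing notes, the tools were bcl2fastq 2.20.0, TopHat2 2.1.0, Bowtie2 2.2.5, SAMtools 0.1.19, featureCounts and DESeq2 1.6.3, with GRCm38/mm10. The annotation and strand setting of the counting are not given in the sources used here. The authors deposited whole-number counts per gene. The deposited FPKM are size-factor-normalized counts divided by gene length, and a deposited log2 table equals log2 of the normalized count plus 1 (largest relative deviations 5.6e-14 and 3.6e-14). A further deposited log2 table of variance-stabilised values was used only in the limma alternative. Columns of other samples numbered 0.

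Genes were kept with filterByExpr (minimum count 10, total 15), scaled with TMM factors and fitted to 8 group means of all 22 libraries (14 residual degrees of freedom) with the robust quasi-likelihood F test of edgeR 4.0.16 in R 4.3.3. P-values were adjusted over 21183 genes by Benjamini-Hochberg. Alternatives used DESeq2 1.42.0, limma 3.58.1, other scalings, filters, groups, replicate blocks and left-out mice. The scripts were tested on simulated data. Replicates are separate mice.

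The 10 genes and the lists were chosen with earlier results of these data known. From each list the text names the called gene with the largest change in each direction in wt at 48 h and the gene with the smallest p in KI against wt, where a result turns on it. For each of the 10 it names the 3 genes with the highest r among those with a mean log2 CPM of at least 3, except for Ccne1, whose nearest genes are not reported here. The numbers pair libraries because experiment and mouse are given in the labels. Deviations from group means of KI and wt libraries of the same experiment correlated at 0.0907 to 0.371 (median 0.22, 8 of 9 over 0.1). Depth per library was 62551905 to 93489115 counts, and counting error weighs most on Ccnb1 in naive cells, the lowest of the 10.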

Additional observations from a re-analysis of the deposited data

How the results depend on the processing

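Of 42 calls of a member in a comparison over time, 28 were kept under every alternative and 14 were lost under at least 1, and all 540 alternative values kept their direction. In wt from 24 h to 48 h, 3 of the 10 were called, against 1 when just those groups were fitted and 1 to 4 when a wt mouse was left out. Over all genes, 864 were called higher and 723 lower in the fit of all libraries, and 255 and 95 when just those groups were fitted. Without wt replicates 1, 3 and 5 in turn, 84, 643 and 329 genes were called higher and 50, 766 and 198 lower. In KI from 24 h to 48 h, 4 were called, against 0 to 3 when a KI mouse was left out (0 without replicate 1 or replicate 5). Without KI replicate 1 or 5, 0 of all tested genes were called in that interval. In KI against wt at 48 h, 0 were called, against 1 (Cdkn1a) with DESeq2 and 1 with limma on variance-stabilised values, and 0 to 1 when a mouse was left out (1 without wt replicate 3). Of all genes, DESeq2 called 837 higher and 858 lower (20011 tested), and limma 545 and 484 (14321 tested). Without wt replicate 3 edgeR called 765 and 525 (20974 tested), and with all libraries 483 and 401 (21183 tested). In libraries labelled KO against wt at 48 h, 0 were called, against 0 to 5 when a mouse was left out (5 without KO replicate 5, where 21.5% of all genes were called). The cause of these shifts was not tested. Fits that leave a mouse or a group out also hold fewer samples, and the part of that was not tested either.

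With the experiment as a replicate block, 4 of the 10 were called in wt from 24 h to 48 h, Ccna2 being added, and the same 4 with the mouse as the block. The paired fits changed the number of the 10 called in no other comparison. Among the other genes that the naming rule picks, they changed the call of Cdc16 alone, in KI against wt at 48 h (-0.38, adjusted p 0.0361 with the block and 0.0541 without).

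Among the called changes over time and the genotype differences at 24 h and 48 h, direction changed only when a mouse was left out, and only for differences that were not called. Cdkn2d in KI against wt at 48 h ran from -0.33 to 0.071 (0.071 without wt replicate 3). In libraries labelled KO against wt at 48 h, with signs turning without KO replicate 1 or wt replicate 5, the log2 difference ran from -0.72 to 0.20 for Ccnb1, -0.81 to 0.32 for Ccnd2, -1.08 to 0.29 for Ccne2, -0.79 to 0.25 for Cdkn1a, -0.52 to 1.20 for Cdkn1b and -0.68 to 0.93 for Cdkn2d. Outside that set, Ccnd2 and Ccnd3 changed sign with scaling in comparisons over time where they were not called. Upper-quartile scaling moved the median log2 fold change of all genes from -0.05 to -0.23 in wt at 24 h and from -0.02 to -0.20 in KI at 48 h. The fit without robust shrinkage was added after the data had been seen and moved no count by more than 1.5 times. Depth limited the naive values of Ccnb1 most, and groups of 2 or 3 mice limit every comparison.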
